A study of Homo sapiens with 6 samples.

Results

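The 9 genes PGD, TKT, TALDO1, ME1, ME2, ME3, IDH1, IDH2 and MTHFD2 encode enzymes that make NADPH or work in pathways that do, and were chosen by name. The RefSeq table holds 19974 protein-coding genes, of which these are 9. Occupancy of NRF2 at them was read from ChIP-seq (sequencing of DNA that is pulled down with a bound protein) of HMC3 cells, a human cell line established from microglia. The control cells of 2 libraries got a vehicle that the labels do not name. The cells of 2 further libraries got 30 nM of CDDO-Im, a triterpenoid that activates NRF2, over 4 h. All 4 were precipitated with the same antibody to NRF2. The 2 input samples were not analysed here. The labels give every sample 1 treatment text, which names CDDO-Im, so the groups rest on the sample titles. Separate cultures are not mentioned for the libraries of a group, and their spread may thus be technical. The files hold no expression values, so the cell type was not checked against markers.

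NADPH is the reducing cofactor that glutathione reductase, thioredoxin reductase and quinone reductases draw on. NRF2 pairs with small MAF proteins on antioxidant response elements, and genes of the pentose phosphate pathway and malic enzyme are among its textbook targets. PGD, phosphogluconate dehydrogenase, makes NADPH in the oxidative branch of the pentose phosphate pathway. TKT, transketolase, and TALDO1, transaldolase, belong to the non-oxidative branch, which makes no NADPH itself but returns sugar phosphates to it. ME1 is the cytosolic NADP-dependent malic enzyme, and ME2 and ME3 are mitochondrial malic enzymes. IDH1 and IDH2 are the NADP-dependent isocitrate dehydrogenases of the cytosol and of mitochondria. MTHFD2 is a mitochondrial enzyme of folate metabolism that makes NADH or NADPH.

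A peak was taken for a gene when its summit lay inside the gene or within 50 kb of either end. By this rule the 4 lists held 12 peaks, which joined into 6 regions of the 19331 in the genome, at PGD, TKT, ME1 and IDH2. No library listed a peak at the other 5 genes. Thus 4 of 9 members had a listed peak of any library, against 31.5% of all protein-coding genes. Regions that both CDDO-Im libraries held lay at 3 members, TKT, ME1 and IDH2, against 11.6% of all genes. Each of these 3 genes also had such a region that neither vehicle library held, against 7.56% of all genes. TKT was the single member with a region of both vehicle libraries, against 1.81% of genes, and of all 4 libraries, against 1.78%. Of the 4 member regions that both CDDO-Im libraries held, 3 were in neither vehicle list, against 67.5% of such regions in the genome outside dense megabases (megabases with more than 20 joined regions). With 9 genes chosen by name these shares carry no test. The genes were also chosen with earlier results of these data known, so an excess over all genes may come from the choice.

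**Figure D1:**
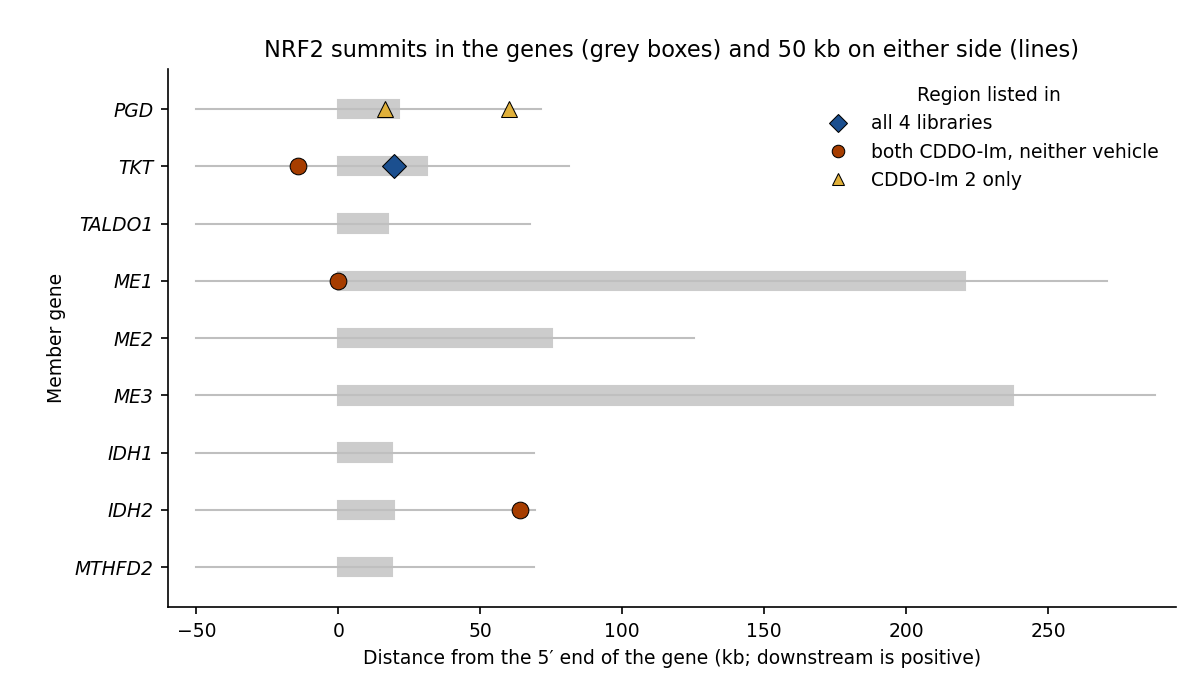
Places of the 6 NRF2 summits along the 9 member genes, drawn to scale in kb from the 5′ end of each gene, with the gene as a grey box and the window of 50 kb on either side as a line. The region inside TKT was listed in all 4 libraries, the regions near TKT, ME1 and IDH2 in the CDDO-Im pair alone, and both PGD regions in CDDO-Im 2 only.

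The ME1 region lay at the start of the gene, and it was the one member region that met a RefSeq promoter entry (250 bases before to 50 after a gene start). Its upstream stretch, chr6:83431052-83431301 on GRCh38.p14, minus strand, is shown because both summits fall in it, with the match to the motif searched in capitals:

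ME1 upstream: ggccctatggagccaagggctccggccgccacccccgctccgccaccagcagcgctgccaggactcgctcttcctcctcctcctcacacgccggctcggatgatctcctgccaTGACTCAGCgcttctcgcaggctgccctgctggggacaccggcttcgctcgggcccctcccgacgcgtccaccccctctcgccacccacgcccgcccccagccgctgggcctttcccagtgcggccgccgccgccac

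The motif searched was TGACNNNGC, the core of the antioxidant response element, on both strands. It was held by 13.3% of the 35116 promoter entries. The ME1 match is centred 133 bp upstream of the gene start and reads TGACTCAGC, which contains TGACTCA, the motif of AP-1 factors, so the letters alone do not tell these factors apart. TGACTCAGC was held by 0.561% of promoter entries. The summits of CDDO-Im 1 and CDDO-Im 2 lay 178 and 175 bp upstream of the gene start, 45 and 42 bp from the centre of this match. A second match, on the other strand and inside the gene, is centred 15 bp downstream of the gene start and 193 and 190 bp from the summits.

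**Figure D2:**
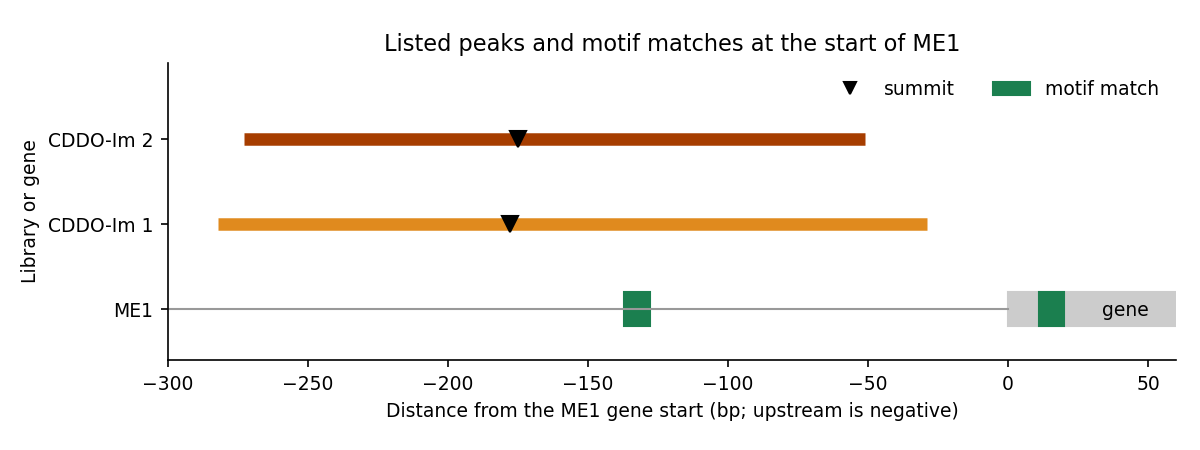
The listed peaks of CDDO-Im 1 and CDDO-Im 2 (bars), their summits (triangles) and the motif matches (green boxes) by distance from the ME1 gene start in bp. Both peaks cover the upstream match, and both summits lie 42 to 45 bp farther upstream than its centre.

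Few promoters held an NRF2 summit of both CDDO-Im libraries. A region with a summit of both CDDO-Im libraries fell in 23 of 35116 entries (0.0655%), and ME1 was one of 10 protein-coding genes with such an entry, of 15813 with an entry (0.0632%). Of these 23 entries, 78.3% held TGACNNNGC and 56.5% TGACTCAGC. The 23 entries are not limited to protein-coding genes, and of the 10 protein-coding genes 7 held TGACNNNGC in such an entry. In the other 6 protein-coding genes of this kind with a match, GABRR3, GCLM, IFRD1, LBR, PRR5 and TXNRD1, the nearest match lay 0 to 33 bp from the summits, so the ME1 match was the farthest of the 7. Of these 6, GABRR3, IFRD1, LBR and PRR5 held TGACTCAGC on 1 of the strands, as ME1 did, and GCLM and TXNRD1 did not. GCLM, which encodes the modifier subunit of the enzyme of the first step of glutathione synthesis, and TXNRD1, thioredoxin reductase, are shown beside the members whose promoters hold a match, in the orientation of each gene and with the match in capitals:

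ME1, chr6:83431170-83431198: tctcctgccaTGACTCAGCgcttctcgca
IDH1, chr2:208255196-208255224: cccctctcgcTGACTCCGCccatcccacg
PGD, chr1:10398853-10398881: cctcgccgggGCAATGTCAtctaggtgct
MTHFD2, chr2:74198611-74198639: ttccctcccgGCGCAGTCAccggcgcggt
GCLM, chr1:93909446-93909474: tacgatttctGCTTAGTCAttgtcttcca
TXNRD1, chr12:104286920-104286948: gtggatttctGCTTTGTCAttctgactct

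The matches of PGD, MTHFD2, GCLM and TXNRD1 lie on the strand opposite to the gene, so the capitals show the reverse complement of the motif there. All 9 members had an entry, 12 in all, and 4 of the 12, of 4 genes, held the motif. At IDH1 the match is centred 139 bp and at PGD 197 bp upstream of the gene start, and at MTHFD2 10 bp downstream of it. No library listed a peak in these 3 promoters. The promoter entries of TKT, TALDO1, ME2, ME3 and IDH2 held no TGACNNNGC, which says only that these letters are not in those windows. The TKT, IDH2 and PGD regions lay outside the promoter entries, and their sequences were not searched for the motif.

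Tags are the sequenced fragments that cover a summit, as whole numbers worked back from the authors' fold enrichment and −log10 p of each peak. At ME1 (chromosome 6, 83431080 to 83431333) CDDO-Im 1 held 10 tags and CDDO-Im 2 held 12, and neither vehicle library listed a peak. Their exact 95% Poisson intervals, which cover counting error only, were 4.8 to 18.4 and 6.2 to 21.0 tags. The nearest vehicle peaks to ME1 lay 2053211 and 4292409 bp from the gene, in vehicle 1 and vehicle 2. The deposited fold enrichment was 8.26 and 9.51, with a −log10 q of 8.92 and 11.67. The 2 summits lay 3 bp apart. This was a weak region for one found in both CDDO-Im libraries: 59.9% of the 2116 such regions outside dense megabases had a higher value in the lower of their 2 libraries. No member region lay in the 77 dense megabases. The weakest vehicle peaks at sites of lowest background had 4 tags, and NRF2 could occupy ME1 under vehicle without a listed peak.

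TKT held the strongest member region, inside the gene and listed in all 4 libraries (chromosome 3, 53236143 to 53236609). Vehicle 1 and 2 held 10 and 12 tags, and CDDO-Im 1 and 2 held 35 and 64. The groups did not overlap, CDDO-Im being higher. After the scaling given below, this held at 87% of the regions that all 4 libraries shared outside dense megabases. The CDDO-Im intervals of 24.4 to 48.7 and 49.3 to 81.7 tags did not meet the vehicle intervals of 4.8 to 18.4 and 6.2 to 21.0. These are intervals of unscaled tags and cover counting error only, not the spread between libraries of a group. The summit lay 19676 bp downstream of the gene start. The RefSeq table gives no exons, so exon and intron were not told apart. The 4 summits fell within 21 bp of each other. The deposited fold enrichment was 7.05 and 8.93 for vehicle and 22.85 and 43.11 for CDDO-Im, and the −log10 q was 6.06, 9.85, 45.23 and 104.7 in the same order.

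Before ratios between libraries were taken, tags were divided by the genome-wide background of the library. The TKT region then stood at 31.7 and 38.1 under vehicle and at 106.0 and 174.0 with CDDO-Im. On the log2 scale the means were 5.12 ± 0.19 (SD, n = 2) and 7.08 ± 0.51 (SD, n = 2), a difference of 1.96, or 3.90-fold. The 4 ratios of a CDDO-Im to a vehicle library lay between 2.77 and 5.50. The exact two-sided permutation p was 0.33, the smallest that 2 libraries against 2 can give, so this design cannot pass a threshold of 0.05. All 4 libraries shared 230 regions outside dense megabases, of which 87% had both CDDO-Im libraries above both vehicle libraries. Their median ratio was 3.21, with quartiles of 2.35 and 3.89, and 23.9% had a higher ratio than the TKT region. The TKT ratio thus lay just above the upper quartile of such regions. The difference was 2.32 on the log2 scale without CDDO-Im 1 and 1.60 without CDDO-Im 2.

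**Figure D3:**
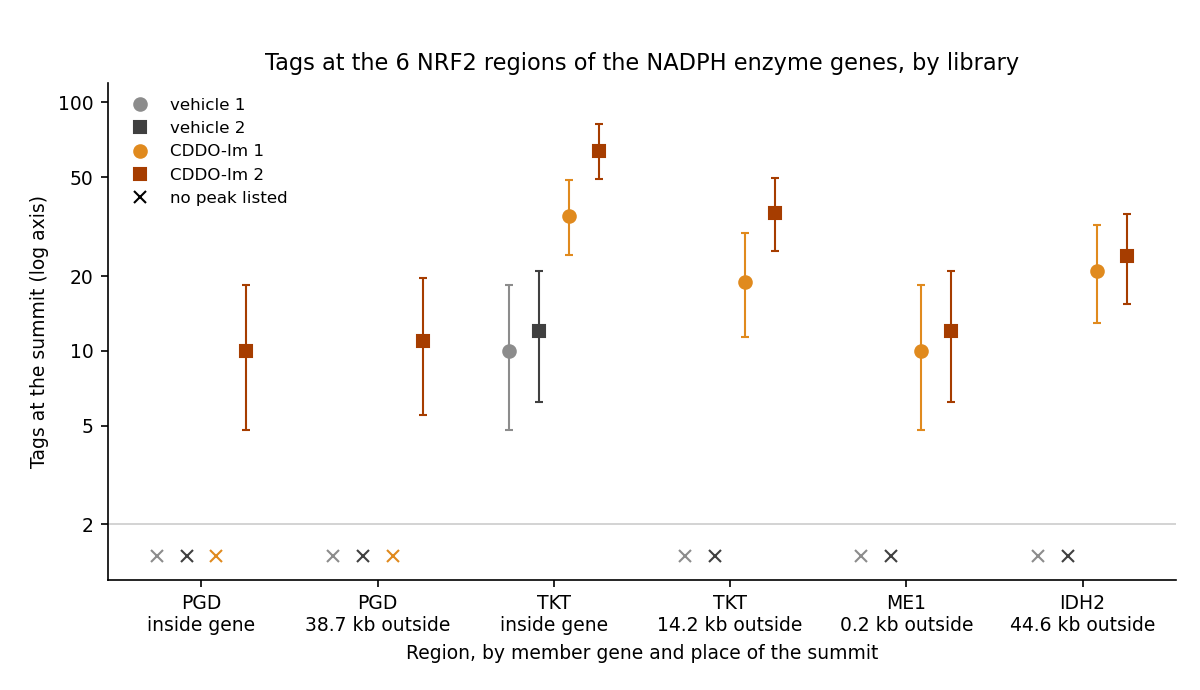
Tags at the summit (log axis) of the 6 member regions in each library, with bars for the exact 95% Poisson interval and crosses below the line where a library listed no peak. The region inside TKT has points in all 4 libraries, at 10 and 12 vehicle tags and at 35 and 64 CDDO-Im tags. The PGD regions have a point in CDDO-Im 2 alone.

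A second TKT region lay upstream of the gene, 14220 bp from its start (chromosome 3, 53270025 to 53270438). CDDO-Im 1 held 19 tags there and CDDO-Im 2 held 36, and neither vehicle library listed a peak. The nearest protein-coding gene was DCP1A, an mRNA decapping factor, whose nearer end lay 13187 bp away, and the nearest gene start in the promoter table was that of TKT. Its fold enrichment was 15.02 and 21.00, and 24.1% of regions of both CDDO-Im libraries had a higher value in the lower library. It held more tags in each CDDO-Im library than the ME1 region at a gene start.

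The IDH2 region lay far from its gene. Its summit was 44617 bp beyond the 3′ end of IDH2 (chromosome 15, 90038257 to 90038595), inside ZNF710, a zinc finger gene. CDDO-Im 1 held 21 tags and CDDO-Im 2 held 24, with intervals of 13.0 to 32.1 and 15.4 to 35.7, and neither vehicle library listed a peak. The fold enrichment was 13.97 and 17.74, and 19.9% of regions of both CDDO-Im libraries stood higher. The RefSeq table does not tell which gene a region acts on, so this region belongs to IDH2 by distance alone, and to no member at a window of 10 kb.

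PGD had regions in CDDO-Im 2 alone. A region inside the gene, 4934 bp from its 3′ end (chromosome 1, 10415425 to 10415733), held 10 tags, with a fold enrichment of 6.24. The other lay 38743 bp beyond the 3′ end (chromosome 1, 10459206 to 10459382), inside DFFA, which encodes the inhibitor of a caspase-activated nuclease, and held 11 tags with a fold enrichment of 5.95. In the list of CDDO-Im 2, 65.4% and 69.3% of the 4795 peaks outside dense megabases had a higher fold enrichment. In the same library ME1 held 12 tags, and unlike the ME1 region the PGD regions were held by no second library.

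**Figure D4:**
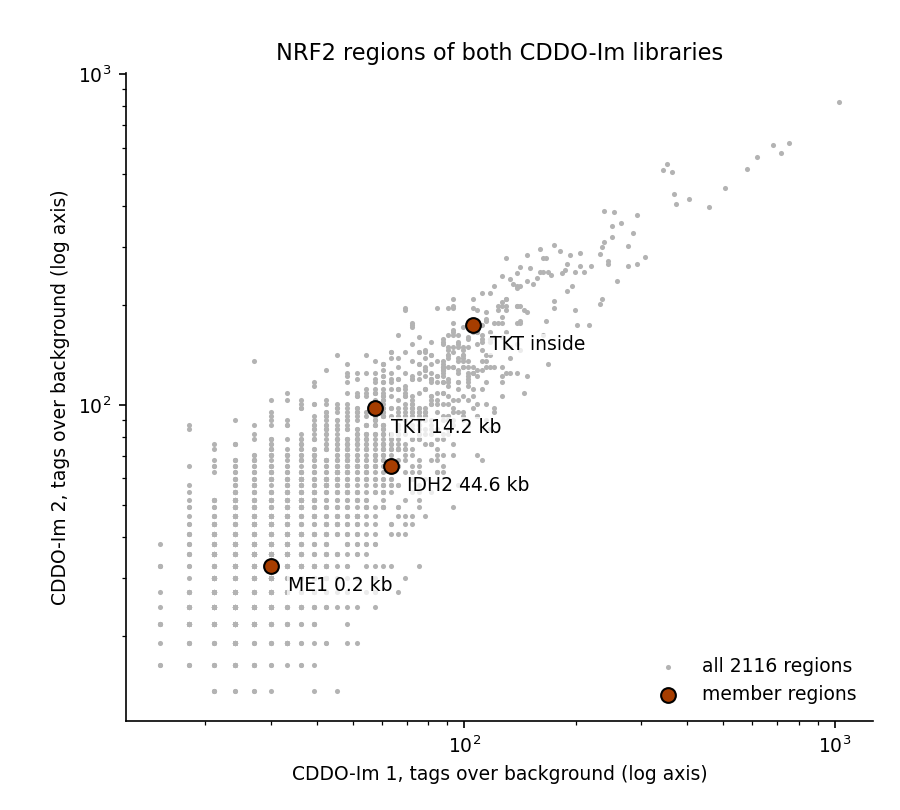
Tags over background in CDDO-Im 1 and CDDO-Im 2 (both log axes) for the 2116 regions of both CDDO-Im libraries outside dense megabases (grey points), with the 4 member regions of this kind in color and named by gene and place. The region inside TKT stands at 106.0 and 174.0, and the ME1 region at 30.2 and 32.7.

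Among the regions of both CDDO-Im libraries, the members spanned a wide range. The region inside TKT ranked 144th of 2116 by the lower of the 2 values over background, the IDH2 region 422nd, the upstream TKT region 512th and the ME1 region 1268th. Over the 1428 regions outside dense megabases that the CDDO-Im pair held and no vehicle library did, CDDO-Im 1 and 2 had medians of 11 and 16 tags. IDH2 and the upstream TKT region stood above both medians, and ME1 below both. The genes whose strongest region was most like that inside TKT, by the summed absolute difference of log2 tags over background in the 4 libraries, were CABCOCO1 (0.25), IER5L (0.48) and PTPA (0.48), of which the last 2 share a region. The CABCOCO1 region had 11 and 12 vehicle tags against 33 and 63 CDDO-Im tags.

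TALDO1, ME2, ME3, IDH1 and MTHFD2 had no listed peak in any library. The nearest peak to TALDO1 lay 177314 bp away, and the nearest region of both CDDO-Im libraries was this one, with 7 and 8 tags. For ME3 and ME2 single peaks of CDDO-Im 2 lay just beyond the window, at 66114 bp with 7 tags and 67416 bp with 8 tags. The nearest peak to IDH1 was 273107 bp away in CDDO-Im 2, and that to MTHFD2 was 366665 bp away in CDDO-Im 1. ME1 was thus the one malic enzyme gene, and IDH2 the one isocitrate dehydrogenase gene of the 9, with a listed peak. Just inside the window were the IDH2 region at 44617 bp and the PGD region at 38743 bp. A second region of both CDDO-Im libraries lay 95747 bp from IDH2, with 9 and 21 tags.

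The number of peaks near the members was 1 in vehicle 1, 1 in vehicle 2, 4 in CDDO-Im 1 and 6 in CDDO-Im 2. CDDO-Im was higher with no overlap of the groups, by 1.56 on the log2 scale after adding 1 to each number (exact permutation p = 0.33, two-sided, n = 2 and 2). The CDDO-Im lists were longer outside dense megabases, with 3249 and 4795 peaks against 1216 and 1276. As a share of these peaks, the members held 0.0822% and 0.0784% under vehicle and 0.123% and 0.125% with CDDO-Im. Divided by these list lengths the difference was 0.63 on the log2 scale with nothing added to the numbers, and -0.10 with 1 added, so its direction rests on single peaks. Divided by all peaks of the library on chromosomes 1 to 22 and X, with 1 added, it was 1.23. The difference was 0.79 at a window of 10 kb. Per megabase of window the members held 0.641 peaks in each vehicle library and 2.56 and 3.84 in CDDO-Im 1 and 2. Over all protein-coding genes these densities were 0.441, 0.496, 1.15 and 1.74, in the same order.

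A list of 25 other genes of the pentose phosphate, folate and NADP pathways was read by the same rule. A peak of any library lay near 10 of the 25, against 31.5% of protein-coding genes, and 2 of the 25 lay near a region that both CDDO-Im libraries held, against 11.6%. Both of these regions were listed in neither vehicle library, and both lay inside a neighbouring gene. NADK, the kinase that makes NADP from NAD, had a region 36957 bp away, inside GNB1 (chromosome 1, 1817279 to 1817617), with 17 and 25 tags. H6PD, the hexose phosphate dehydrogenase of the endoplasmic reticulum, had one 28965 bp away, inside SPSB1 (chromosome 1, 9300108 to 9300470), with 14 and 20 tags. Within 10 kb, 2 of the 9 members, TKT and ME1, and 0 of the 25 other genes had a region of the CDDO-Im pair, against 5.79% of protein-coding genes. Only the ME1 region of these was in neither vehicle list, so 1 of 9 members met that rule within 10 kb, against 3.9% of protein-coding genes.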

How the data were processed

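NRF2 ChIP-seq peak lists of 4 libraries were used. The submitters' processing notes name MACS2 2.2.7.1, BWA 0.7.17 and bcl2fastq 2.15.0, and the builds GRCm38 and hg38. Duplicate handling, controls and the peak threshold were not given in the sources used here. Each deposited list names 1 library and gives per peak a fold enrichment (ratio), a −log10 p and −log10 q, and a score, as the authors' values. Coordinates are 1-based on hg38, and genes and promoters are from RefSeq on GRCh38.p14.

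Tags and local background were recovered from fold enrichment, taken as tags plus 1 over background plus 1, and −log10 p, taken as the upper Poisson tail. In each library 100% of peaks gave whole tags (tolerance 0.001 plus 0.0002 of the value), with a single match for all 12 member peaks. The lowest background of a library, 0.315 to 0.367 tags, stood for its depth, because the lists give no library totals. Peaks of chromosomes 1 to 22 and X that overlapped by 1 bp or more made 1 region. Python 3.11.15, NumPy 2.4.6, SciPy 1.17.1, pandas 2.3.3 and Matplotlib 3.10.9 were used. Tag recovery, region classes and motif search were tested on simulated data.

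All members are named, regions of 2 or more libraries are given in full, other pathway genes are named only where both CDDO-Im libraries share a region, and single library regions by their tags. Members and lists were chosen with earlier results of these data known. Alternatives changed the window, the −log10 q, the joining, the scaling and the libraries used. Libraries of a group were not paired: the labels give shared numbers only.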

Additional observations from a re-analysis of the deposited data

How the results depend on the processing

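At a window of 10 kb, member genes and member regions of both CDDO-Im and neither vehicle library fell from 3 to 1 each (over all protein-coding genes the share fell from 7.56% to 3.9%), and regions of 1 library from 2 to 1; at 100 kb the latter were 4. At a −log10 q of at least 10 no region was in all 4 libraries and no gene had a region of both vehicle libraries (0 in place of 1), because the vehicle peaks at TKT stood at 6.06 and 9.85, and 1 region was of 1 library. ME1 was then listed in CDDO-Im 2 alone. Leaving out 1 library gave 3 to 5 regions of all remaining CDDO-Im and no remaining vehicle library and 2 to 5 of 1 library, the highest without CDDO-Im 1, where CDDO-Im 2 alone stands for the group. The difference in peaks near members was 1.32 to 1.81 on the log2 scale when 1 library was left out, 0.79 at a window of 10 kb, 1.95 at 100 kb, 2.16 at a −log10 q of at least 10, 1.23 when divided by all peaks of the library, and -0.10 when peak numbers plus 1 were divided by the peaks outside dense megabases (chosen after seeing the data). The TKT difference was 1.60 to 2.32 when 1 library was left out. Under a replicate block, with libraries paired by number, the differences were 1.56 for peaks and 1.96 for TKT tags, each with an exact sign-flip p of 0.5, the smallest that 2 pairs allow; the numbers are not known to pair the libraries. With 10 to 12 tags at ME1, PGD and the vehicle peaks of TKT, counting error limits what these lists can show.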
